A study of Mus musculus with 9 samples.

Results

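Transcripts of 8 genes that encode components of the colonic mucus or proteins that goblet cells use to make it were followed across sorted epithelial populations of the mouse colon: Muc2, Spink4, Agr2, Reg4, Fcgbp, Clca1, Tff3 and Zg16. They were taken by name from the 24421 gene symbols of the expression table. They had been picked because some of them are highest in the goblet gate of the crypt bottom and others, Zg16 above all, in the enterocyte gate of the crypt top. The levels by population are therefore a description, and no test of them is given. All 8 genes passed the filter on low values used for the other genes.

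The colon is covered by a gel that keeps bacteria away from the epithelium. Its scaffold is MUC2, a gel-forming mucin that goblet cells fold and oxidise in the endoplasmic reticulum, coat with O-linked sugars in the Golgi apparatus, pack into granules and release into the lumen. Other goblet cell products, among them FCGBP, CLCA1, ZG16 and TFF3, are released with it and become part of the gel. Goblet cells sit both in the lower crypt and at the surface between the absorptive cells, and cells at these sites differ in how they secrete.

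RNA sequencing libraries of 3 populations, each with 3 replicates, were made from the colons of adult C57BL/6J mice labelled female, with each replicate of a population from a mouse of its own. All 3 gates were set on Epcam, the epithelial antigen, after exclusion of dead cells, doublets and cells with antigens of leukocytes or endothelium. The gate enriched in Lgr5 cells (Cd44 present, Kit absent) and the gate enriched in goblet cells (Cd44 and Kit present) were assigned by the labels to the crypt bottom, and the gate enriched in enterocytes (Cd44 absent, Cd66a high) to the crypt top. They are called the Lgr5, goblet and enterocyte gates here. No gate selected goblet cells by a mucus protein. The labels name no antigen that removed goblet cells from the enterocyte gate. In bulk libraries of this kind, fewer cells of a type and less RNA per cell cannot be told apart.

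Recovered depth was 11.2 to 26.8 M reads in genes (M, times 1000000). The smallest count behind a value of the 8 genes was at least 112 reads (Tff3 in Lgr5 replicate 3) and the largest at least 456231 reads (Muc2 in goblet replicate 3). A list of 8 goblet cell markers summed to 45068 to 62271 TPM (transcripts per 1000000, a level corrected for gene length) in the goblet libraries, 9628 to 14918 TPM in the enterocyte and 1425 to 1535 TPM in the Lgr5 libraries; 6 of these markers are among the genes described here. Markers of colonocytes (7 genes) summed to 2543 to 5165 TPM in the enterocyte gate, 79.5 to 256 TPM in the Lgr5 gate, and 10.5, 12.8 and 137 TPM in goblet replicates 1 to 3. Markers of leukocytes (6 genes) summed to 247, 144 and 18.5 TPM in enterocyte replicates 1 to 3 and to at most 23.3 TPM elsewhere, and their part in the levels below was not tested. The library labelled enterocyte replicate 1 goes against its label of female: Xist stood at 0.128 TPM there and at 110 to 204 TPM elsewhere, and 4 Y-linked genes summed to 139 TPM there and to at most 0.325 TPM elsewhere. Levels of the 8 genes in this population are given with and without that library, and other values where leaving it out moves them by over 1.5 times or changes a count described.

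RefSeq promoter entries (build GRCm38.p6) were found for 4 of the 8 genes, Muc2, Fcgbp, Agr2 and Reg4. They are shown because the 4 genes differ in where their transcripts are highest: Muc2, Agr2 and Reg4 in the goblet gate, Fcgbp at like levels in the goblet and enterocyte gates. Each is the 250 bases before the RefSeq start, 5′ to 3′ on the plus strand, at chr7:141690090-141690339 for Muc2, chr7:28070986-28071235 for Fcgbp, chr12:35992675-35992924 for Agr2 and chr3:98221906-98222155 for Reg4. Capitals mark matches, on either strand, to any of 6 motifs: CAGCTG (an E-box of the kind that ATOH1 dimers bind), TGTTTAC (forkhead factors such as FOXA), CCACCC (KLF factors), TTTATG (CDX factors), TGACGT (the core of elements bound by CREB3L factors and XBP1) and TATAAA (the TATA box).
Muc2: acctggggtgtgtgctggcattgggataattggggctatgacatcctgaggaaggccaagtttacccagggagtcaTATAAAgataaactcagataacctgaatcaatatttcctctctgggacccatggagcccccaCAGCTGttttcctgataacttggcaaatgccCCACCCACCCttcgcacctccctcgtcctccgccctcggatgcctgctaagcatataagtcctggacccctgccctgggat
Fcgbp: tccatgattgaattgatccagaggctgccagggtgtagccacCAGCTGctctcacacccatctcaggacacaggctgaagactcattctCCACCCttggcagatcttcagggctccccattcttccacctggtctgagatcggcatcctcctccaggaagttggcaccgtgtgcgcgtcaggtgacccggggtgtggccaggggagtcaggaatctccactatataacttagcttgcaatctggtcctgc
Agr2: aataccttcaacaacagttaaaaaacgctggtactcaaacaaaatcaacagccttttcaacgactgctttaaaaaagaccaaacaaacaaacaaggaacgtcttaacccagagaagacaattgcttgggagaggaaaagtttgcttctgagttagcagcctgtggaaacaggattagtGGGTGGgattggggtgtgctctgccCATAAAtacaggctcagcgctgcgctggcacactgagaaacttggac
Reg4: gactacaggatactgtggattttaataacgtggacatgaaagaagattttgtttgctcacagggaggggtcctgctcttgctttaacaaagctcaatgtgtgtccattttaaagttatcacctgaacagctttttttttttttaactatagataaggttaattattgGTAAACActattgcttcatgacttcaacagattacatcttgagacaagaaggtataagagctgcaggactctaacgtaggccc
The E-box CAGCTG was in the Muc2 window (112 to 107 bases before the start) and in the Fcgbp window (208 to 203 bases before it). Among 32851 RefSeq promoter windows of that length, 13% held it. CCACCC was in the Muc2 window as 2 overlapping matches (81 to 76 and 77 to 72 bases before the start), in the Fcgbp window (161 to 156) and, on the minus strand, in the Agr2 window (72 to 67), against 28.1% of all windows. Reg4 had the forkhead letters on the minus strand (83 to 77 bases before the start), which 3.17% of all windows held. Agr2 had TTTATG on the minus strand (47 to 42 bases before the start; 10.8% of windows), Muc2 had TATAAA (174 to 169; 12.4% of windows), and TGACGT (6.47% of windows) was in none of the 4. The base composition also differed, from 37.2% G and C for Reg4 and 44.4% for Agr2 to 53.2% for Muc2 and 56.4% for Fcgbp, against a median of 52.4% over all windows. A match describes letters in a window and shows no binding.

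Of the 8 genes, 7 were higher in every goblet library than in every Lgr5 library, and all 8 were higher in every enterocyte than in every Lgr5 library. Between the goblet and the enterocyte gates, 4 were higher in every goblet library (Muc2, Spink4, Agr2 and Reg4), 2 were lower in every one (Zg16 and Tff3) and 2 overlapped (Fcgbp and Clca1). These 3 comparisons helped to choose the genes, so nothing is read from the counts. Over all 12888 genes tested by limma, 34.3%, 49.6% and 44.1% were called in the same 3 comparisons, and 49.3%, 61.2% and 56.9% with the replicate number as a block. These are shares of genes called by a test, another measure than separate ranges, which were not counted over all genes. Without Lgr5 replicate 3, the number called between the goblet and Lgr5 gates fell from 4423 to 2646.

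**Figure D1:**
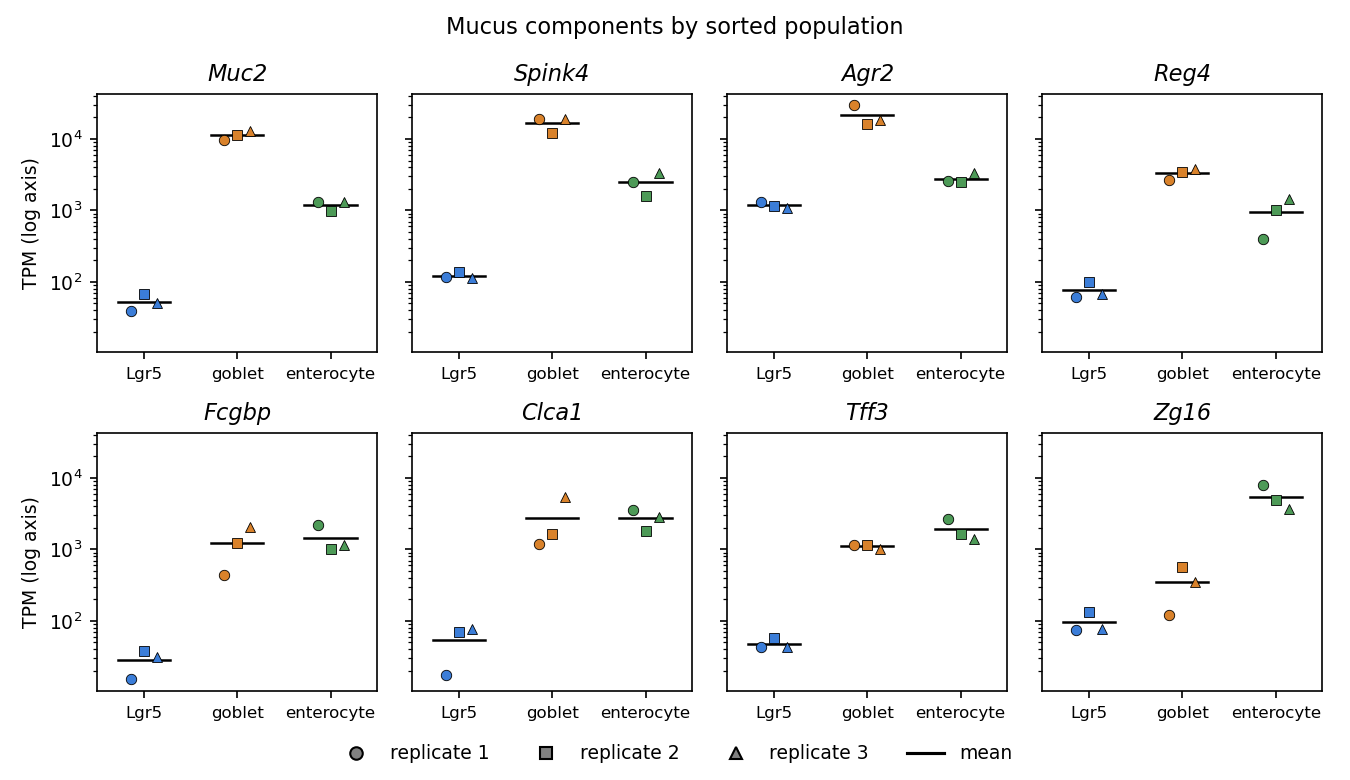
TPM on a log axis for the 8 genes in the Lgr5, goblet and enterocyte populations; each symbol is 1 library, its shape gives the replicate number, and the bar is the mean of 3 libraries. Muc2, Spink4, Agr2 and Reg4 are highest in the goblet gate, Fcgbp and Clca1 overlap between the goblet and enterocyte gates, and Zg16 is highest in the enterocyte gate, at 3679 to 7864 TPM.

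Muc2, the gel-forming mucin itself (chromosome 7, 141690340 to 141754693, plus strand; mm10, GENCODE), showed the widest span of population means among the 8 as a ratio, though Agr2 and Spink4 spanned more TPM. It stood at 39.1, 68.7 and 50.3 TPM in Lgr5 replicates 1 to 3, at 9639, 11551 and 13123 TPM in goblet replicates 1 to 3, and at 1321, 975 and 1326 TPM in enterocyte replicates 1 to 3. The ranges of the 3 populations did not overlap, and the enterocyte gate lay between the others. Means were 52.7 ± 14.9, 11438 ± 1745 and 1207 ± 201 TPM (SD, n = 3), so that the goblet mean was 217-fold the Lgr5 and 9.47-fold the enterocyte mean (9.94-fold without the library labelled enterocyte replicate 1). Within a population the highest Muc2 library was at most 1.76-fold the lowest. GENCODE tags the Muc2 locus as fragmented in the assembly, which touches its level against other genes but not its order across libraries.

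Spink4, a Kazal-type inhibitor of serine proteases made by goblet cells (chromosome 4, 40920052 to 40931395, plus strand), followed the same order. Its levels were 117, 137 and 114 TPM in the Lgr5, 19067, 12134 and 18785 TPM in the goblet, and 2537, 1575 and 3324 TPM in the enterocyte libraries. No ranges overlapped. The goblet mean of 16662 ± 3924 TPM was 136-fold the Lgr5 mean (123 ± 12.6 TPM) and 6.72-fold the enterocyte mean (2479 ± 876 TPM), or 6.8-fold without the library labelled enterocyte replicate 1. In both of the differentiated gates replicate 2 was the lowest for Spink4, whereas it was the highest of the Lgr5 libraries.

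Agr2 encodes a protein disulfide isomerase of the endoplasmic reticulum that is needed to make MUC2 (chromosome 12, 35992907 to 36004087, plus strand). It differed from the other 7 in its level in the Lgr5 gate, which was 1295, 1146 and 1098 TPM. The goblet libraries held 29642, 16332 and 18679 TPM and the enterocyte libraries 2545, 2467 and 3298 TPM. Again no ranges overlapped, but the steps were of other sizes. The goblet mean (21551 ± 7105 TPM) was 18.3-fold the Lgr5 mean (1180 ± 103 TPM), a smaller step than for any of the others but Zg16, and 7.78-fold the enterocyte mean (2770 ± 459 TPM; 7.48-fold without the library labelled enterocyte replicate 1). The enterocyte mean was 2.35-fold the Lgr5 mean, the smallest such ratio of the 8, which ran from 12.5-fold to 57.6-fold for the other 7.

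Reg4, a C-type lectin of the regenerating gene family (chromosome 3, 98222156 to 98236748, plus strand), stood at 60.7, 99 and 68 TPM in the Lgr5, 2641, 3441 and 3808 TPM in the goblet, and 394, 1019 and 1427 TPM in the enterocyte libraries. The 3 ranges were separate. Its goblet mean (3297 ± 596 TPM) was 43.4-fold the Lgr5 mean (75.9 ± 20.3 TPM) and 3.48-fold the enterocyte mean (947 ± 520 TPM). This last ratio was 2.7-fold without the library labelled enterocyte replicate 1, which was the lowest of its gate for Reg4. In the goblet libraries Reg4 kept an almost fixed proportion to Muc2, at 0.274 to 0.298 of its TPM, while in the enterocyte libraries the proportion ran from 0.299 to 1.08. The 0.299 was in the library labelled enterocyte replicate 1, and enterocyte replicates 2 and 3 held 1.04 and 1.08.

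Fcgbp encodes a large protein of repeated von Willebrand D domains that is abundant in the gel (chromosome 7, 28071236 to 28120862, plus strand). Levels were 15.2, 38.5 and 31 TPM in the Lgr5, 435, 1245 and 2061 TPM in the goblet, and 2170, 1019 and 1172 TPM in the enterocyte libraries. The goblet and enterocyte ranges overlapped, and both lay above the Lgr5 range. Their means were 1247 ± 813 and 1454 ± 625 TPM, against 28.2 ± 11.9 TPM in the Lgr5 gate, so that the ratio of the enterocyte to the goblet mean was 1.17. Without the library labelled enterocyte replicate 1 the order of these means turned, with the goblet mean 1.14-fold the enterocyte, and it turned likewise without goblet replicate 1. Without goblet replicate 3 the enterocyte mean was 1.73-fold the goblet. Between libraries of the same replicate number the enterocyte level was 4.99-fold the goblet for replicate 1, and the goblet level was 1.22-fold and 1.76-fold the enterocyte for replicates 2 and 3.

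Clca1, known earlier as gob-5, encodes a secreted metalloprotease that cleaves MUC2 (chromosome 3, 145003817 to 145032776, minus strand). It stood at 17.7, 68.9 and 76.6 TPM in the Lgr5, 1184, 1668 and 5459 TPM in the goblet, and 3547, 1832 and 2890 TPM in the enterocyte libraries. As with Fcgbp, the goblet and enterocyte ranges overlapped. Their means were 2770 ± 2341 and 2756 ± 865 TPM, 50.9-fold and 50.7-fold the Lgr5 mean of 54.4 ± 32 TPM, and the order of the 2 depended on single libraries. Without goblet replicate 3 the goblet mean was 1426 TPM, the enterocyte mean was 1.93-fold the goblet and the ranges no longer overlapped. Without the library labelled enterocyte replicate 1 the goblet mean was 1.17-fold the enterocyte, and without enterocyte replicate 2 the enterocyte mean was 1.16-fold the goblet. Within the goblet gate Clca1 and Fcgbp took the same order, lowest in replicate 1 and highest in replicate 3. Goblet replicate 3 was also the library with the highest colonocyte marker sum of that gate (137 TPM, against 2543 TPM or more in the enterocyte gate) and the highest sum of 6 tuft cell markers (40.4 TPM, against 5.95 and 14 TPM). The part of these cells in the Fcgbp and Clca1 levels was not tested.

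Tff3, the intestinal trefoil peptide of mucosal repair (chromosome 17, 31125306 to 31129646, minus strand), was the most even of the 8 in the goblet gate, at 1172, 1171 and 1018 TPM. The enterocyte libraries held 2688, 1651 and 1414 TPM and the Lgr5 libraries 42.9, 58.1 and 43.4 TPM. No ranges overlapped, with the enterocyte gate on top. Its mean there (1918 ± 677 TPM) was 1.71-fold the goblet mean (1120 ± 89 TPM) and 39.8-fold the Lgr5 mean (48.1 ± 8.65 TPM). Without the library labelled enterocyte replicate 1, the highest of all for Tff3, these ratios were 1.37-fold and 31.8-fold.

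Zg16 encodes a lectin-like protein of the mucus that binds the cell wall of Gram-positive bacteria (chromosome 7, 127050156 to 127087328, minus strand). It stood apart from the other 7 in its small step between the gates of the crypt bottom: it was at 73.9, 135 and 77 TPM in the Lgr5 and 120, 565 and 351 TPM in the goblet libraries. These ranges overlapped. The enterocyte libraries held 7864, 4900 and 3679 TPM, above every other library. The enterocyte mean of 5481 ± 2152 TPM was 15.9-fold the goblet mean (345 ± 223 TPM) and 57.6-fold the Lgr5 mean (95.2 ± 34.2 TPM), and 12.4-fold and 45.1-fold without the library labelled enterocyte replicate 1. Between libraries of the same number the enterocyte level of Zg16 was 65.6-fold, 8.67-fold and 10.5-fold the goblet level, so that replicate 1 gave the widest gap. The goblet levels of 120, 565 and 351 TPM stood beside colonocyte marker sums of 10.5, 12.8 and 137 TPM in the same libraries, and the part of colonocytes in them was not tested.

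The order of the levels differed from gate to gate. In the Lgr5 gate Agr2 was first by more than the spread between libraries, and the order by mean went on with Spink4, Zg16, Reg4, Clca1, Muc2, Tff3 and Fcgbp. From Spink4 to Tff3 each pair of neighbours overlapped, and Tff3 (42.9 to 58.1 TPM) was above every Fcgbp value (15.2 to 38.5 TPM). In the goblet gate the order by mean was Agr2, Spink4, Muc2, Reg4, Clca1, Fcgbp, Tff3 and Zg16. Neighbours in that order overlapped except Muc2 and Reg4, and Tff3 and Zg16. In the enterocyte gate the order by mean was Zg16, Agr2, Clca1, Spink4, Tff3, Fcgbp, Muc2 and Reg4. There Zg16 was above every Agr2 value, and each later pair of neighbours overlapped. Without the library labelled enterocyte replicate 1 the order by mean was Zg16, Agr2, Spink4, Clca1, Tff3, Reg4, Muc2 and Fcgbp. Reg4 then stood at 1223 TPM, Muc2 at 1151 TPM and Fcgbp at 1096 TPM.

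Together the 8 genes made up 0.166% ± 0.00966 of all transcripts in the Lgr5, 5.84% ± 0.895 in the goblet and 1.9% ± 0.384 in the enterocyte gate (SD, n = 3). The make-up of that sum differed as much as its size. Agr2 was 71.3% ± 6.29 of it in the Lgr5 gate, 36.6% ± 8.75 in the goblet and 14.9% ± 3.5 in the enterocyte gate. Muc2 was 3.17% ± 0.787, 19.9% ± 4.52 and 6.4% ± 0.718 in the same order, and Spink4 was 7.38% ± 0.404, 28.2% ± 2.62 and 13% ± 4.26. Zg16 went the other way, with 0.639% ± 0.499 of the sum in the goblet and 28.6% ± 7.63 in the enterocyte gate. Clca1 (4.65% ± 3.54 against 14.3% ± 2.09), Tff3 (1.96% ± 0.427 against 9.99% ± 2.1) and Fcgbp (2.18% ± 1.34 against 7.44% ± 1.71) were also a larger share in the enterocyte than in the goblet gate. Reg4 held like shares in all 3 gates (4.56% ± 1.01, 5.77% ± 1.52 and 5.34% ± 3.19). Without the library labelled enterocyte replicate 1, the 8 genes made up 1.7% of all transcripts in the enterocyte gate, and Zg16 was 25.8%, Agr2 16.9%, Spink4 14.1%, Clca1 13.7%, Tff3 9.16%, Reg4 7.15%, Muc2 6.74% and Fcgbp 6.46% of their sum.

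**Figure D2:**
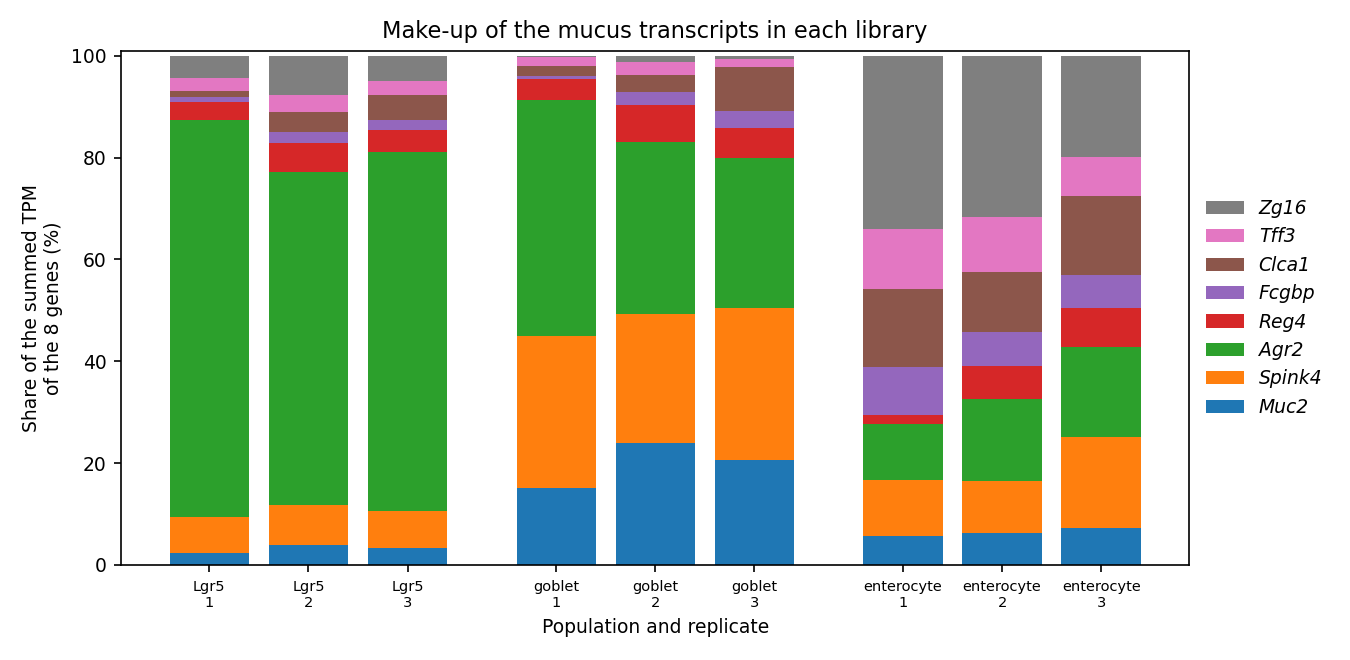
Share of the summed TPM of the 8 genes (percent, axis from 0) held by each gene, with 1 stacked bar per library, grouped by population and numbered by replicate. Agr2 takes 65.5 to 78% of the sum in the Lgr5 libraries, Agr2, Spink4 and Muc2 take most of it in the goblet libraries, and Zg16 takes 19.9 to 34.1% in the enterocyte libraries.

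Set against Muc2 in the same library, Zg16 ran from 0.0124 to 0.0489 of the Muc2 TPM in the goblet libraries and from 2.77 to 5.95 times Muc2 in the enterocyte libraries. Tff3 ran from 0.0775 to 0.122 of Muc2 in the former and from 1.07 to 2.04 in the latter. Clca1 ran from 0.123 to 0.416 and from 1.88 to 2.69, and Fcgbp from 0.0452 to 0.157 and from 0.884 to 1.64. For these 4 genes the ratio to Muc2 was higher in every enterocyte library than in any goblet library, and for Reg4 it was so by a narrow margin (0.274 to 0.298 and 0.299 to 1.08). The 0.299 was in the library labelled enterocyte replicate 1, and replicates 2 and 3 held 1.04 and 1.08. Spink4 (1.05 to 1.98 and 1.61 to 2.51) and Agr2 (1.41 to 3.08 and 1.93 to 2.53) overlapped between the gates by this measure. Muc2 was itself chosen on these levels, and its goblet mean was 9.47-fold the enterocyte mean. A gene that falls less than Muc2 has a higher ratio by arithmetic, so nothing is read from the separation.

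The genes also differed in how far libraries of a gate lay apart. In the goblet gate the highest library was 4.74-fold the lowest for Fcgbp, 4.71-fold for Zg16 and 4.61-fold for Clca1, but 1.15-fold for Tff3, 1.36-fold for Muc2, 1.44-fold for Reg4, 1.57-fold for Spink4 and 1.81-fold for Agr2. Fcgbp, Zg16 and Clca1 were each lowest in goblet replicate 1, where Agr2 was at its highest. In the enterocyte gate Reg4 varied most (3.62-fold) and Agr2 and Muc2 least (1.34-fold and 1.36-fold). In the library labelled enterocyte replicate 1, Fcgbp, Clca1, Tff3 and Zg16 were each the highest of the gate and Reg4 the lowest.

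Across the 9 libraries, Pearson's r of log2(TPM + 1) was 0.995 between Muc2 and Spink4 and 0.989 between Fcgbp and Clca1. It was 0.361 between Zg16 and Muc2 and 0.012 between Zg16 and Agr2. These values describe 9 libraries that form 3 populations and share their normalization to a fixed total, so they mostly restate the population means. By the same measure, the 3 tested genes most like each of the 8 were named. For Muc2 they were Tpsg1 (0.997), Atoh1 (0.996) and Ano7 (0.996), and for Spink4 Atoh1 (0.994), Sytl2 (0.993) and Ano7 (0.992). Atoh1 is the transcription factor that commits cells to the secretory lineage, and Sytl2 encodes a synaptotagmin-like protein of granule docking. For Agr2 they were Pmm2 (0.998), which makes a sugar phosphate used in glycosylation, the antisense transcript A430078I02Rik (0.998) and A4gnt (0.994), a glycosyltransferase of gastric-type mucin sugars. For Reg4 they were Anxa13 (0.994), Hpd (0.990) and Ramp1 (0.989).

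Fcgbp was most like 9530053A07Rik (0.992), Serf2 (0.992) and the calpain gene Capn9 (0.991), and Clca1 was most like Capn9 (0.985), Lrmp (0.985) and Tmbim6 (0.984). Capn9 stood at 40.9 ± 14.1 TPM in the goblet and 39.6 ± 9.83 TPM in the enterocyte gate. Tff3 was most like Gde1 (0.989), Sval1 (0.989) and Trim72 (0.984); Sval1 was itself abundant, at 1123 ± 235 and 1267 ± 111 TPM in those gates and 31.4 ± 16.1 TPM in the Lgr5 gate. Zg16 was most like Plekhg6 (0.993), Abca7 (0.990) and Pamr1 (0.989), whose highest mean was 42.3 ± 6.36 TPM (Abca7, enterocyte). None of these 3 came near Zg16 in level.

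The gene closest in pattern to Fcgbp is also the next gene on the chromosome. 9530053A07Rik (chromosome 7, 28129466 to 28164811, plus strand) encodes an FCGBP-like protein, and its level was 1.11 to 1.62% of that of Fcgbp in every one of the 9 libraries. It stood at 0.429 ± 0.234, 16.4 ± 12 and 20.6 ± 8.45 TPM in the Lgr5, goblet and enterocyte gates. How the authors assigned reads that fit both genes is not given in the sources used here, so the level of 9530053A07Rik is uncertain.

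Most relatives of the 8 genes were scarce. Of 30 listed relatives 12 passed the filter of at least 1 TPM in at least 3 libraries. The gel-forming mucins Muc5ac, Muc5b and Muc6, which flank Muc2 on chromosome 7 (141633456 to 141873084), had means of at most 2.35 ± 1.4 TPM (Muc6, goblet). Tff1 was at 0 in all libraries and Tff2, which lies between Tff1 and Tff3, had a mean of at most 1.51 ± 0.823 TPM (goblet). Beside Agr2, its neighbour Agr3 had means of 7.47 ± 3.78, 6.34 ± 3.42 and 1.51 ± 1.43 TPM in the Lgr5, goblet and enterocyte gates. Other relatives were abundant. Txndc12, an endoplasmic reticulum relative of Agr2, had means of 81.1 ± 7.5, 145 ± 23.5 and 55.2 ± 4.33 TPM in these 3 gates. Reg3b, an antimicrobial lectin related to Reg4, was at 2607, 4.35 and 38.8 TPM in the Lgr5, 97.7, 1.75 and 1.78 TPM in the goblet, and 796, 2.67 and 33.7 TPM in the enterocyte libraries, so that replicate 1 was the highest of every gate. Reg3b was called in none of the 3 comparisons, but with the replicate number as a block it was lower in the goblet than in the Lgr5 (limma adjusted p = 0.00691) and the enterocyte gate (0.0193). Reg3g, another such lectin, was likewise highest in replicate 1 of every gate, at up to 1066 TPM (Lgr5).

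In the Clca cluster (chromosome 3, 144729677 to 145099443) Clca3b was abundant too. It stood at 2785, 1742 and 2759 TPM in the Lgr5, 480, 617 and 721 TPM in the goblet, and 455, 85 and 246 TPM in the enterocyte libraries. It was thus highest in the gate where Clca1, of the same cluster, was lowest. Clca3b was lower in the goblet than in the Lgr5 gate (limma adjusted p = 0.0164, log2 difference -1.99, SE 0.51) and lower in the enterocyte than in the Lgr5 gate (limma adjusted p = 0.00071, log2 difference -3.48), with a Lgr5 mean 9.27-fold the enterocyte mean, or 14.7-fold without the library labelled enterocyte replicate 1. The first of these calls was lost without Lgr5 replicate 3 (limma adjusted p = 0.0586) or goblet replicate 1 (0.05), with a range of 0.00168 to 0.0586 over the alternatives. Clca3a1 and Clca3a2 had means of at most 37.7 ± 9.39 TPM, and Clca2 of at most 1.02 ± 0.668 TPM. Clca4a was lower in the goblet (3.55 ± 3.01 TPM) than in the enterocyte gate (100 ± 107 TPM, limma adjusted p = 0.00255). The enterocyte mean was 28.3-fold the goblet mean, or 10.9-fold without the library labelled enterocyte replicate 1. Clca4a was also lower in the goblet than in the Lgr5 gate (limma adjusted p = 0.0213), a call lost without Lgr5 replicate 2 (0.0561) or 3 (0.0749) or goblet replicate 1 (0.0608). Clca4b stood at 805 TPM in the library labelled enterocyte replicate 1 and at 1.45 and 11 TPM in the other 2 of that gate. Genes of this cluster are close paralogs, so reads may have been split between them.

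**Figure D3:**
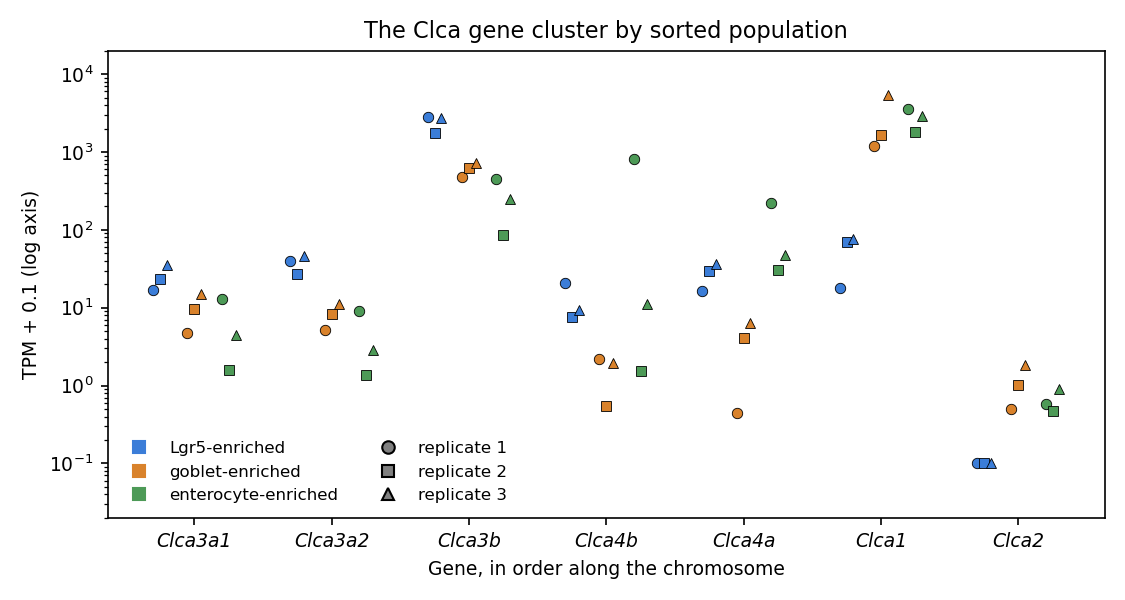
TPM + 0.1 on a log axis for the 7 genes of the Clca cluster in order along the chromosome, with 1 symbol per library coloured by population and shaped by replicate number. Clca3b falls from the Lgr5 to the enterocyte libraries, whereas Clca1 is lowest in the Lgr5 libraries at 17.7 to 76.6 TPM.

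Among the 12 relatives tested, 1 was higher and 3 were lower in the goblet than in the Lgr5 gate, against 10.7% and 23.6% of all genes. In the enterocyte against the Lgr5 gate 1 was higher and 6 were lower (12.0% and 37.6% of all genes). Between the goblet and enterocyte gates 3 were higher and 3 lower in the former (28.2% and 15.9%). Their median log2 differences were -1.58, -0.61 and -0.34, against -0.26, -0.35 and 0.20 over all genes. The first count, 4 in all, was 2 without Lgr5 replicate 3 or goblet replicate 1 and 7 without the library labelled enterocyte replicate 1. With the replicate number as a block it was 8 (2 higher, 6 lower, against 13.9% and 35.4% of all genes). The second, 7 in all, was 4 without Lgr5 replicate 3. Under quantile normalization it was 4 (1 higher, 3 lower, against 18.8% and 22.4% of all genes). The third, 6 in all, was 3 without goblet replicate 3 or enterocyte replicate 3. With the block it was 10 (4 higher, 6 lower, against 36.3% and 20.6% of all genes). Spink1, a relative of Spink4, moved the other way from it, at 637 ± 542 TPM in the enterocyte and 41.4 ± 15.2 TPM in the goblet gate (log2 difference -3.65, goblet minus enterocyte, SE 0.50, limma adjusted p = 0.000499). The library labelled enterocyte replicate 1 held 1262 TPM of Spink1 and the other 2 of its gate 334 and 313 TPM, so that the enterocyte mean was 15.4-fold the goblet mean with that library and 7.82-fold without it.

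The factors that drive the goblet cell programme were mostly highest in the goblet gate, as Muc2 was. Of 14 listed transcription factors and endoplasmic reticulum stress sensors, 13 were called higher in the goblet than in the enterocyte gate and 1, Klf4, lower, with a median log2 difference of 2.18 against 0.20 over all genes, of which 28.2% were higher and 15.9% lower. Against the Lgr5 gate, 13 were higher in the goblet gate and 0 lower (median 2.03 against -0.26; 10.7% and 23.6% of all genes), and 6 were higher and 1 lower in the enterocyte gate (median 0.35 against -0.35; 12.0% and 37.6%). The last pair of counts became 9 and 0 with median-of-ratios scaling (23.5% and 19.6% of all genes) and 7 and 0 with quantiles made equal (18.8% and 22.4%). It was 5 and 0 without the library labelled enterocyte replicate 1 (9.36% and 31.5%). As a percent of the goblet mean, the enterocyte level was 8.46% for Spdef, the factor of goblet cell maturation, 19.2% for Atoh1, 19.4% for Foxa3 and 34.3% for Xbp1. On the same scale it was 10.6% for Muc2, 12.9% for Agr2, 14.9% for Spink4 and 28.7% for Reg4. It was 99.5% for Clca1, 117% for Fcgbp, 171% for Tff3 and 1587% for Zg16, and 85.2%, 87.8%, 137% and 1242% without the library labelled enterocyte replicate 1. Without goblet replicate 3 it was 193% for Clca1 and 173% for Fcgbp. Klf4, a factor of goblet cell maturation that enterocytes also express, was at 175%: it stood at 524, 576 and 546 TPM in the goblet and 1089, 916 and 875 TPM in the enterocyte libraries (log2 difference -0.80, SE 0.13, limma adjusted p = 0.00107).

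**Figure D4:**
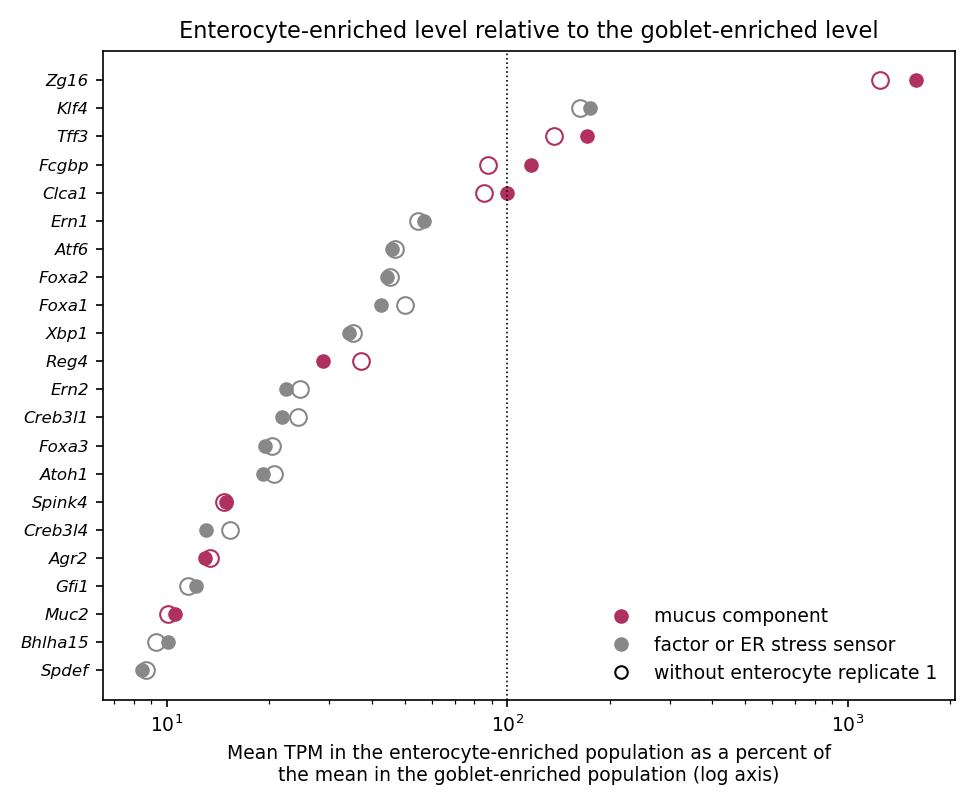
Mean TPM in the enterocyte gate as a percent of the mean in the goblet gate (log axis) for the 8 mucus genes and 14 factors and stress sensors; filled points use all 3 libraries per population, open points leave out the library labelled enterocyte replicate 1, and the dotted line marks equal levels. Muc2, Agr2 and Spink4 lie among the factors at 10.6 to 14.9%, and Fcgbp, Clca1, Tff3 and Zg16 lie at 99.5% or above, and without that library Fcgbp and Clca1 lie at 87.8% and 85.2%, below the line.

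Genes that coat, pack and release MUC2 were set beside it. Of 18 tested enzymes of mucin O-glycan synthesis, 15 were higher and 2 lower in the goblet than in the enterocyte gate (median log2 difference 1.49), against 28.2% and 15.9% of all genes (median 0.20). Both lower calls, St3gal1 and Gcnt4, were lost under several alternatives. Among these were leaving out the library labelled enterocyte replicate 1 (limma adjusted p = 0.144 and 0.0812) or goblet replicate 1 (0.13 and 0.0937). The fit to 6 libraries was another (0.0779 and 0.0641). With the replicate number as a block the call of St3gal1 was lost (limma adjusted p = 0.05). The counts were then 15 and 1, against 36.3% and 20.6% of all genes. Against the Lgr5 gate, 14 were higher and 1 lower in the goblet (median 2.27; 10.7% and 23.6% of all genes, median -0.26) and 8 higher and 2 lower in the enterocyte gate (median 0.60; 12.0% and 37.6%, median -0.35). The last counts were 10 and 1 under both other scalings. The shares of all genes were 23.5% and 19.6% with median-of-ratios scaling and 18.8% and 22.4% under quantile normalization. B3gnt6, which makes the core 3 sugar that the mouse colon mucin carries, stood at 74.8 ± 45.3 TPM in the goblet, 1.49 ± 0.689 TPM in the enterocyte and 0.544 ± 0.231 TPM in the Lgr5 gate. Its difference between the goblet and enterocyte gates was 4.78 on the log2 scale (SE 0.43, limma adjusted p = 7.01e-05). Of 14 tested genes of granule exocytosis, 7 were higher and 3 lower in the goblet gate, both against the enterocyte gate (median 0.52) and against the Lgr5 gate (median 0.49). Of all genes, 28.2% and 10.7% were called higher in these 2 comparisons, and 15.9% and 23.6% lower. The lower ones, 3 of 14, are near the last 2 shares. In the enterocyte against the Lgr5 gate 5 were higher and 2 lower (median 0.27), against 12.0% and 37.6% of all genes. The counts were 10 and 1 with median-of-ratios scaling, where the shares of all genes were 23.5% and 19.6%. They were 7 and 1 after the quantiles were made equal (18.8% and 22.4%). Sytl2 rose most, to 92.4 ± 20.1 TPM, while Vamp8 and Unc13d, both of secretory granule fusion, and Nlrp6, an inflammasome sensor linked to mucus release, were lower in the goblet than in the enterocyte gate (Vamp8 174 ± 5.31 against 328 ± 45.4 TPM, limma adjusted p = 0.000541).

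For 6 genes of anion transport, which serves the unfolding of released mucin, 1 was higher and 3 were lower in the goblet than in the Lgr5 gate (median log2 difference -1.34), against 10.7% and 23.6% of all genes. Between the enterocyte and Lgr5 gates 2 were higher and 2 lower (median -0.16; 12.0% and 37.6% of all genes), and between the goblet and enterocyte gates 1 was higher and 3 were lower (median -0.52; 28.2% and 15.9%). With 6 genes, 1 gene is a large share of such a count. Best2, the bestrophin channel of colonic goblet cells, had the pattern of Clca1 and Fcgbp, at 39.4, 165 and 79 TPM in the goblet, 57.3, 106 and 85.3 TPM in the enterocyte, and 0.996, 4.29 and 2.81 TPM in the Lgr5 libraries. The ranges of the first 2 gates overlapped and their difference did not pass the test (limma adjusted p = 0.997), and both were higher than the Lgr5 gate (limma adjusted p = 0.000294 and 0.000273).

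Among other listed secreted proteins of goblet cells and the mucus layer, those called between the goblet and enterocyte gates were mostly lower in the goblet gate. Those not called went both ways in their means. Of 15 tested, 1 (Itln1) was higher and 7 were lower in the goblet than in the enterocyte gate (median log2 difference -2.36), against 28.2% and 15.9% of all genes. In the goblet against the Lgr5 gate 5 were higher and 5 lower (median -1.05; 10.7% and 23.6% of all genes), and in the enterocyte against the Lgr5 gate 9 were higher and 0 lower (median 2.65; 12.0% and 37.6%). The counts between the goblet and enterocyte gates were 0 and 8 with median-of-ratios scaling (19.9% and 21.3% of all genes). They were 0 and 7 with quantiles made equal (22.4% and 18.5%) and without the library labelled enterocyte replicate 1 (22.0% and 13.2%). With the replicate number as a block they were 4 and 9, where 36.3% and 20.6% of all genes were called. Lypd8, which keeps flagellated bacteria from the epithelium, was on the side of Zg16: it stood at 845, 795 and 1508 TPM in the goblet and 33388, 12191 and 14640 TPM in the enterocyte libraries (log2 difference -4.17, SE 0.38, limma adjusted p = 7.64e-05). Tgm3, a transglutaminase that cross-links the gel, was on that side too, at 0.423, 1.65 and 33.8 TPM in goblet replicates 1 to 3 against 822 ± 139 TPM (-7.33, SE 1.04, limma adjusted p = 0.000638). The goblet mean of Tgm3 was 11.9 TPM, and 1.03 TPM without replicate 3, the goblet library with the highest colonocyte marker sum. The other 5 lower genes were the meprin protease genes Mep1a and Mep1b, the cytokine gene Il18, Dmbt1, which encodes a scavenger receptor protein of mucosal defence, and Wfdc2, which encodes a secreted protease inhibitor. Retnlb, which encodes the goblet cell product RELMβ, was on the side of Muc2 in its means (2647 ± 2076 against 343 ± 265 TPM), but did not pass the test (limma adjusted p = 0.0942) unless the replicate number was a block (0.000377) or goblet replicate 2 was left out (0.0176). Replicate 2 was the lowest Retnlb library of every gate. Klk1, a kallikrein protease, likewise stood at 6837 ± 2219 against 3146 ± 1373 TPM (limma adjusted p = 0.12), and passed with the block (0.00335), without Lgr5 replicate 1 (0.0417) and without replicate 1 of all gates (0.0112). Ang4 (821 ± 907 against 351 ± 213 TPM) and Pla2g2a (330 ± 338 against 47 ± 33.8 TPM) also had higher goblet means. Neither was called (limma adjusted p = 0.462 and 0.0836), but Pla2g2a passed under some alternatives, among them the block (0.000439). Pigr, Reg3b and Reg3g, not called either, had lower goblet means. The block called Reg3b and Reg3g (0.0193 and 0.0221), and their order of means turned without the library labelled enterocyte replicate 1. The call of Itln1, an intelectin, was lost under 7 of 16 alternatives (limma adjusted p = 0.0287, range 0.00252 to 0.0951), among them leaving out goblet replicate 3 (0.0847) or the libraries labelled enterocyte replicate 1 (0.0519) or 2 (0.0951).

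**Figure D5:**
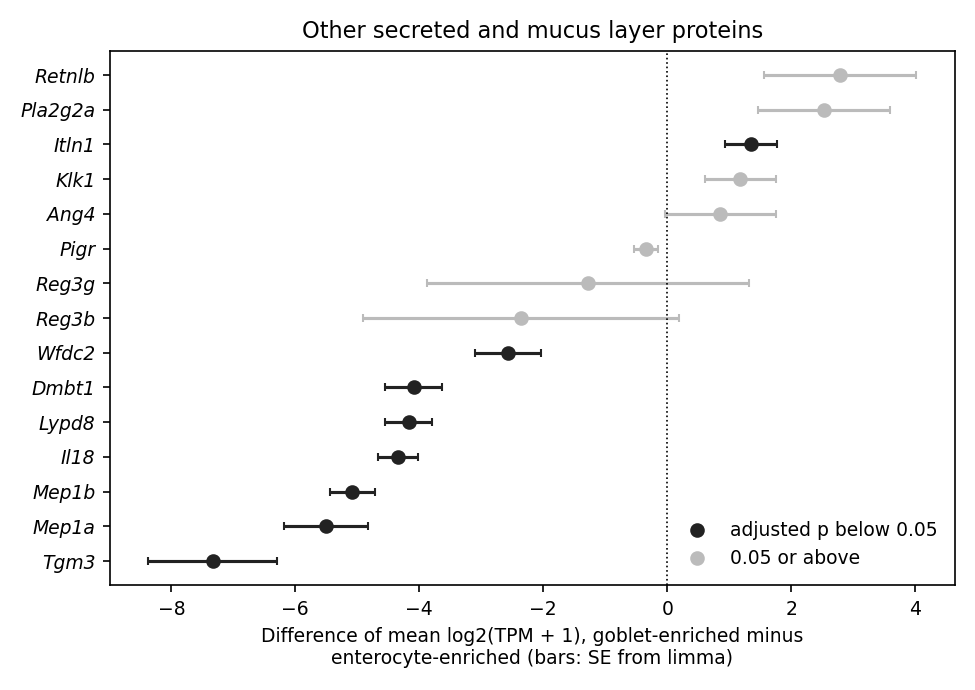
Difference of mean log2(TPM + 1), goblet minus enterocyte, for 15 other secreted and mucus layer proteins, with bars for the standard error from limma and black points for adjusted p below 0.05. Tgm3, Mep1a, Mep1b, Il18, Lypd8, Dmbt1 and Wfdc2 lie below 0, the side on which Zg16 and Tff3 lie, and Itln1 is the only called gene above 0.

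Genes listed for surface goblet cells and for the deep crypt secretory cell of the lower colon crypt were then set beside Zg16 and Muc2. Both lists were drawn up with earlier results of these data known. The goblet gate was set on Cd44 and Kit, which may itself select deep crypt secretory cells, so the counts of that list are no separate evidence. All 7 tested surface genes were lower in the goblet than in the enterocyte gate (median log2 difference -5.04), and 5 of the 6 deep crypt secretory genes were higher and 0 lower there (median 2.16), against 28.2% of all genes higher and 15.9% lower (median 0.20). Among the surface genes, Gsdmc, Gsdmc2, Gsdmc3 and Gsdmc4 belong to 1 gene family and moved together (log2 differences -5.04, -5.99, -5.94 and -5.99). The count and the median of that list rest largely on this family. Mxd1, a surface marker, stood at 27 ± 5.06 TPM in the goblet and 248 ± 109 TPM in the enterocyte gate (log2 difference -3.08, SE 0.29, limma adjusted p = 8.06e-05), and Muc13, a membrane mucin that enterocytes also make, at 1502 ± 303 and 3429 ± 1478 TPM. Dmbt1, on the surface list too, was not confined to the crypt top, at 2078 to 2877 TPM in the Lgr5 and 2053 to 6503 TPM in the enterocyte libraries. Nor were Gsdmc2, Gsdmc3 and Gsdmc4. Their means were 462 ± 398, 270 ± 195 and 675 ± 530 TPM in the Lgr5 gate, and 1755 ± 486, 966 ± 159 and 2901 ± 527 TPM in the enterocyte gate. Against the Lgr5 gate, 0 surface genes were higher and 5 lower in the goblet gate (median -3.47; 10.7% and 23.6% of all genes), and 3 were higher and 0 lower in the enterocyte gate (median 2.35; 12.0% and 37.6%). The count of 5 fell to 1 without any of Lgr5 replicates 2 and 3 or goblet replicates 1 and 2. Each time the calls of Gsdmc, Gsdmc2, Gsdmc3 and Gsdmc4 were lost together. The count of 3 was 6 without goblet replicate 1, 5 without goblet replicate 3 and 2 without the library labelled enterocyte replicate 1. It was 6 with the replicate block, which called 15.9% of all genes higher in the enterocyte than in the Lgr5 gate. All 6 deep crypt secretory genes were higher in the goblet than in the Lgr5 gate (median 3.19), and in the enterocyte gate 3 were higher and 1 lower (median 1.03). The colonocyte marker sum moved with Zg16 and the surface genes, from at most 137 TPM in the goblet to at least 2543 TPM in the enterocyte gate, and the part of colonocytes in the Zg16 level was not tested.

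For the 88 listed genes tested in all, 46 were higher and 19 lower in the goblet than in the Lgr5 gate, 37 and 14 in the enterocyte against the Lgr5 gate, and 45 and 25 in the goblet against the enterocyte gate. Over all genes 10.7% and 23.6%, 12.0% and 37.6%, and 28.2% and 15.9% were higher and lower in the same comparisons. Without the library labelled enterocyte replicate 1, which left 36.0%, 40.9% and 35.2% of all genes called, no count of a list in 1 direction moved by more than 2 genes. The scaling between libraries moved the whole table. Calls over all genes were higher in the first-named gate for 31.3%, 24.2% and 63.9% of those made in the 3 comparisons, for 54.5%, 54.6% and 48.3% under median-of-ratios scaling, and for 49.2%, 45.6% and 54.8% under quantile normalization. Median-of-ratios scaling shifted the median log2 difference of all genes by 0.21, 0.37 and -0.17. Under it the differences of the 8 genes kept their signs in all 3 comparisons, at 4.92 for Muc2 and 1.64 for Agr2 in the enterocyte against the Lgr5 gate.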

How the data were processed

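Messenger RNA of 9 libraries was measured, 3 for each of 3 sorted populations, and the groups and replicate numbers were taken from the labels. The authors deposited 1 log2 value per gene symbol and library. Values of 0 and above are log2(TPM) and values below 0 are TPM minus 1, as the deposited values themselves show: with this rule each of the 9 columns sums to 1000000. Per-sample columns not used numbered 0. The submitters' processing notes name Cufflinks, without a version, and the build mm10. Not given in the sources used here are the aligner, the annotation and the use of strand. TPM fixes the total of each library, so a very abundant transcript lowers all others there. The labels do not assign libraries to the 2 kinds of sequencer they name.

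Depth was recovered from the values: 18386 of 18396 genes above 0 (99.95%) came out as whole reads in every library (tolerance 1e-06 of a read; lengths of at most 20000 bases were tried), and these reads are lower bounds. For a gene of 1 kb, 1 read equals 0.0958 to 0.208 TPM.

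Log2(TPM + 1) was fitted with limma 3.58.1 in R 4.3.3 (lmFit, eBayes with trend), 1 mean for each population and all 9 libraries in the fit, for the 12888 genes that reached 1 TPM in 3 or more libraries. Tests are two-sided, p was adjusted by Benjamini-Hochberg in each comparison and a gene called below 0.05, and a log2 fold change on this scale understates the change of low genes. The p-values measure only the spread between libraries, in which animal, sex and run may be mixed. The unit had been open when the test was chosen, and the same test was kept for TPM. The 8 mucus genes are given as TPM, mean ± SD and ratios of mean TPM, with no test.

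The 8 genes and the 8 lists of related genes (112 genes, 110 of them in the table, 4 in 2 lists) were chosen with earlier results of these data known. The lists were other secreted proteins, relatives of the 8 genes, transcription factors and endoplasmic reticulum stress sensors, granule exocytosis, mucin O-glycan synthesis, anion transport, surface goblet cell genes and deep crypt secretory genes. Genes were named by rule: in each list up to 4 called genes per direction and comparison with the largest change, any gene of at least 100 TPM in a population, and the 3 genes most like each of the 8. Other genes that the rule allows are given only within counts. Muc5ac, Muc5b, Muc6, Tff1, Tff2 and Clca2 fall outside the rule and were named as neighbours of the 8 genes after their values were seen.

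Libraries of the same number deviated from their population means together (Pearson's r across genes 0.194 to 0.601 for all 9 same-number pairs), so the numbers were treated as pairing the samples from the data. The main fit has no block, so its p-values and all-gene shares do not use the pairing. Values with the block are given where it changes a call described or moves a count by over 1.5 times. The labels do not say that a number marks a mouse, and the library labelled enterocyte replicate 1 differs from the others of its number in sex-linked transcripts. Alternatives were the pseudocount, the filter, 2 other scalings, the replicate number as a block, fits to 6 libraries, each library left out, and replicate 1 of all populations left out. Gene positions are from GENCODE for GRCm38 (mm10), promoters from RefSeq, and motifs were searched as exact letters on both strands.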

Additional observations from a re-analysis of the deposited data

How the results depend on the processing

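For the 8 mucus genes, 370 of 384 differences under the alternatives moved by less than the spread between libraries. That count says little about stability. Leaving out 1 of 3 libraries cannot move a difference that far. The block, the filter and the fit to 6 libraries leave it unchanged. The 14 others came from median-of-ratios scaling, quantile normalization or leaving out replicate 1 of all populations. Among them, the log2 difference of Fcgbp, goblet minus enterocyte, was -0.40 with all libraries and 0.55 without replicate 1 of all populations, and that of Zg16 was -4.17 and -3.25. Under quantile normalization the goblet minus Lgr5 difference was 7.34 for Muc2 (7.76 before), 6.41 for Spink4 (7.05) and 3.33 for Agr2 (4.14). No call of a named gene of the lists reversed: 3680 of 3936 kept their side of the threshold, 94 passed and 162 were lost.

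With 1 library left out, genes called between the goblet and Lgr5 gates numbered 2646 to 4597 (4423 with all). Relatives called numbered 2 to 7 (goblet against Lgr5), 4 to 7 (enterocyte against Lgr5) and 3 to 6 (goblet against enterocyte), and surface goblet cell genes 1 to 5 and 2 to 6 in the first 2 of these comparisons.

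The replicate block gave 13 called other secreted proteins of 15 and 10 relatives of 12 between the goblet and enterocyte gates, where it called 56.9% of all genes. It called 8 relatives of 12 between the goblet and Lgr5 gates (49.3% of all genes). Between the enterocyte and Lgr5 gates it called 6 surface goblet cell genes of 7 (61.2% of all genes). Of single named calls it made 22 and ended 1, and the remaining list counts stayed within 1.5 times. With no filter on low values, 7 relatives and 2 surface genes were called between the goblet and Lgr5 gates, where more genes were tested, and in the fit to 6 libraries 7 and 1. That fit called 6 surface genes between the enterocyte and Lgr5 gates. There, quantile normalization called 4 relatives and 41.2% of all genes, and median-of-ratios scaling called 11 exocytosis genes (10 higher, 1 lower) and 43.1% of all genes. The cause of these changes was not tested. Depth limits values below about 1 TPM, and none of the 8 genes is near that level.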
